A study of Mus musculus with 4 samples.

Results

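The 6 genes described here encode ion channels that open on stretch of the membrane or are linked to it: Piezo1, Piezo2, Trpv4, Trpm7, Trpc6 and Kcnk2. They are 6 of the 32285 mouse genes in the deposited matrices, chosen by symbol from a survey that already knew how these genes behaved in the same counts, so their levels and differences are given as a description with no test. The matrices hold single-nucleus RNA sequencing of whole hearts from wild-type (WT) mice aged 12 days after birth. On day 7 each mouse received either saline, called control below, or AAV9-cTnT-YAP5SA. That virus carries YAP5SA, an active form of the Hippo pathway effector YAP, behind the cardiac troponin T promoter, which is active in cardiomyocytes. Mothers were fed chow or a high-fat diet (HFD) over 5 days. Each of the 4 groups is 1 library, and values are always listed with the chow pair first (control, then YAP5SA) and the HFD pair second (control, then YAP5SA). Because the control was saline, the virus and its cargo cannot be told apart. Neither strain nor hearts per library are stated in the labels.

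For YAP5SA on chow and control on HFD the treatment label names the other diet than the title does. Groups follow the titles, so the diet named in each comparison rests on them, while control and YAP5SA are the same in every label. The libraries held 43408234 to 61191454 UMIs (unique molecular identifiers, each counting 1 captured RNA molecule), and 6048, 8068, 8018 and 10009 nuclei were kept. Pairs of libraries shared 7 to 27 cell barcodes. The 6 sequences that the authors added to the mouse reference had 0, 599, 1 and 244 UMIs, near 0 in both saline libraries. Xist, the RNA of the inactive X chromosome, had 298 UMIs in YAP5SA on chow and at least 106671 in each other library, so the chow comparison sets a male library against a female one. Sex and vector cannot be told apart there. Nuclei were grouped into classes named by marker genes, written with "-like". Cardiomyocyte-like nuclei carried their own list at 41840 to 68600 CPM (counts per 1e6 UMIs of the class sum) in every library, and fibroblast-like nuclei carried theirs at 4843 to 7156 CPM. Intervals below are exact 95% intervals and leave out any difference between animals, since they reflect counting error alone.

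Piezo1 and Piezo2 form trimeric, non-selective cation channels that open when the membrane is stretched and let calcium in. Trpv4, Trpm7 and Trpc6 are members of the TRP family of cation channels: Trpv4 responds to cell swelling and shear, Trpc6 opens downstream of receptor-driven phospholipase C, and Trpm7 carries magnesium, zinc and calcium and has a kinase domain of its own. Kcnk2 (TREK-1) is a two-pore-domain potassium channel that opens on stretch and pulls the membrane potential towards rest. In the heart, calcium entry through such channels is known to feed calcineurin, the phosphatase that activates NFAT transcription factors.

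YAP binds DNA through TEAD factors, so the 250 bases before each annotated start were read for the TEAD hexamer GGAATG on both strands (CATTCC is the same letters on the opposite strand). RefSeq promoter windows (GRCm38.p6) were matched by symbol for 5 of the 6 genes, in 8 windows, of which 4 belong to Kcnk2. The hexamer was found in 1 of the 8 windows and in 12.6% of all 32851 windows of that length. The windows shown are those of the 2 genes that differed most clearly in cardiomyocyte-like nuclei and the Kcnk2 window that holds the match, each 5′ to 3′ on the gene's own strand, with any match in capitals. They lie at chr8:122551330-122551579 (minus strand), chr2:126876262-126876511 (minus strand) and chr1:189402274-189402523 (minus strand).
Piezo1: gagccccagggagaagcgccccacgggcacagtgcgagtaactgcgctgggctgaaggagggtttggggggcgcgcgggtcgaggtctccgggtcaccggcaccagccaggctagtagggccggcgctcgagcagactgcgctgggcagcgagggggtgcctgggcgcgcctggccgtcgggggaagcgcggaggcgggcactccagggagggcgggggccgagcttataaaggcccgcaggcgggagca
Trpm7: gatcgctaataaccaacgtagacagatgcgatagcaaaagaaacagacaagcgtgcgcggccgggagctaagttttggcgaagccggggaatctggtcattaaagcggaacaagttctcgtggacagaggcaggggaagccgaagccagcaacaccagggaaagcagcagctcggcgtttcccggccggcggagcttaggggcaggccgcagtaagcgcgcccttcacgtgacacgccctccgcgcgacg
Kcnk2: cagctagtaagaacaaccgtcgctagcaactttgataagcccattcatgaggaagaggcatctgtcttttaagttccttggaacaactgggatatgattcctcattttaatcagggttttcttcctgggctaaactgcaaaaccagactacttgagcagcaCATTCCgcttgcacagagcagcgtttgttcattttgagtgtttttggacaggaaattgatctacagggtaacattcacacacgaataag
The capitals in the Kcnk2 window start 89 bases before the start site and match the reverse strand. The Piezo1 window has a GC content of 74.0% and the Kcnk2 window one of 42.4%. A match is a run of letters, not a shown binding site, and its absence says only that these letters are not in this window.

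By the GENCODE vM21 annotation (mm10), Piezo1 (ENSMUSG00000014444) lies at chr8:122481698-122551329 on the minus strand, and 85.7% of its span is intronic. Trpm7 (ENSMUSG00000027365) lies at chr2:126791565-126876230, minus strand, Trpv4 (ENSMUSG00000014158) at chr5:114622152-114658421, minus strand, and Trpc6 (ENSMUSG00000031997) at chr9:8544142-8680741, plus strand. Piezo2 (ENSMUSG00000041482) lies at chr18:63010213-63387183, minus strand, with 95.5% intronic. Kcnk2 (ENSMUSG00000037624) lies at chr1:189207930-189402273 on the minus strand and is 97.5% intronic. Of the genes that overlap a member and are among the deposited features, Ctu2, on the strand opposite to Piezo1, held 1252 UMIs against 17486 for Piezo1. Kcnk2 overlaps 2900042K21Rik on its own strand (151 UMIs against 15465). Whether counting used strand is not stated in the labels, so the members' counts are uncertain where another gene overlaps.

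The 6 genes differed in where they were found. Piezo1 was highest in epicardial-like (207 to 352 CPM over the 4 libraries), lymphatic endothelial-like (312 to 335), endothelial-like (239 to 278) and endocardial-like nuclei (188 to 227), and lower in fibroblast-like nuclei (104 to 165). Cardiomyocyte-like nuclei (20.2 to 103) had the lowest median over the 4 libraries, but their range overlapped those of pericyte-like (35.4 to 55.1) and smooth muscle-like nuclei (27.6 to 96.4), which lay below them in both YAP5SA libraries. The ranges of the epicardial-like and lymphatic endothelial-like classes overlapped, and so did those of fibroblast-like and macrophage-like nuclei (73.2 to 183). Piezo2 was highest in lymphatic endothelial-like nuclei (641 to 1100), followed by endothelial-like (189 to 305), fibroblast-like (80.3 to 533) and pericyte-like nuclei (206 to 539), whose ranges overlapped, and it was near the background in cardiomyocyte-like nuclei (1.17 to 2.09).

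Trpm7 was present in every named class, with medians over libraries from 272 CPM in Schwann-like to 457 in cardiomyocyte-like nuclei, and the ranges of neighbouring classes overlapped throughout. Trpc6 was concentrated in smooth muscle-like (248 to 284) and pericyte-like nuclei (143 to 256), and Kcnk2 in fibroblast-like (297 to 433) and, lower, pericyte-like nuclei (78.2 to 122). Trpv4 was low everywhere, with 704 UMIs in all, and reached medians of 16.3 to 40.9 CPM in lymphatic endothelial-like, macrophage-like, endothelial-like, epicardial-like and endocardial-like nuclei. Free RNA gives some UMIs in nuclei that do not express a gene. Macrophage-like nuclei, with median depths of 2706, 3425, 2558 and 3324 UMIs, serve as a measure of it: Piezo2 was found in 1.04%, 0.935%, 0% and 0.985% of them and Kcnk2 in 0%, 0.935%, 2.11% and 0.246%. The 0 of 190 nuclei in control on HFD allows a share of up to 1.58% (3 nuclei of the total). Cardiomyocyte-like nuclei, with medians of 4904 to 6024 UMIs, held Piezo2 in 0.631% to 0.894% and Kcnk2 in 0.516% to 1.27%, which is read as background. For Piezo1, Trpm7 and Trpv4 no such class was available.

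**Figure D1:**
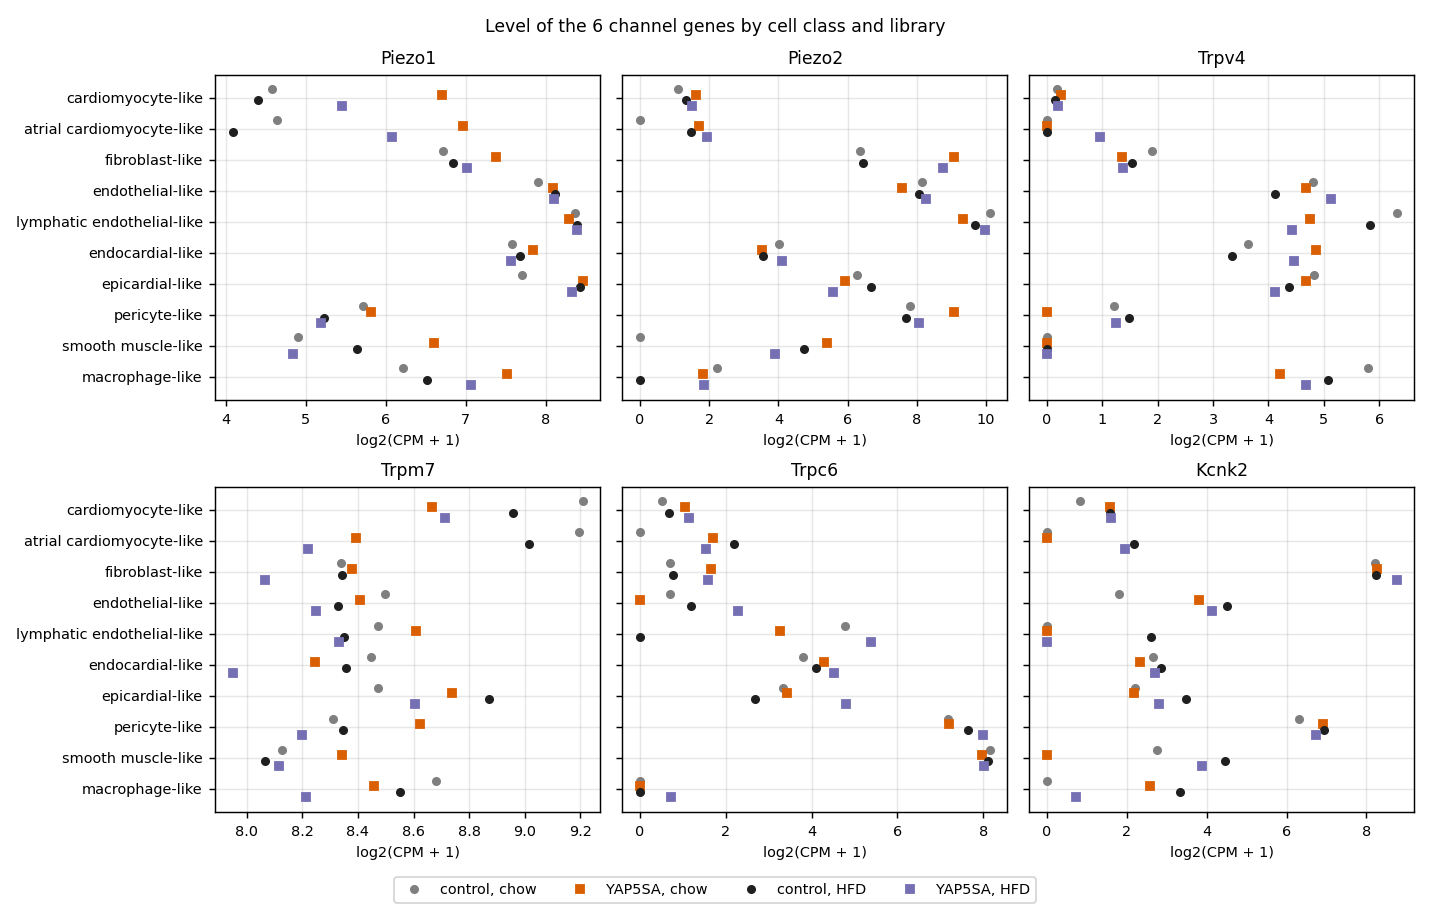
Level of each of the 6 channel genes (x axis, log2(CPM + 1) of the summed nuclei, with its own range in each panel) in 10 cell classes (y axis), with 1 point for each of the 4 libraries. Piezo1 in cardiomyocyte-like nuclei and Piezo2 in fibroblast-like nuclei lie higher in both YAP5SA libraries than in both controls, while Trpc6 is high in pericyte-like and smooth muscle-like nuclei in all 4.

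Piezo1 was higher in the cardiomyocyte-like nuclei of both YAP5SA libraries. On chow it stood at 22.9 CPM in the control (21.0 to 24.95) and 103 with YAP5SA (99.4 to 107), and on HFD at 20.2 in the control (18.3 to 22.3) and 42.9 with YAP5SA (40.4 to 45.4). The controls lay close together, and both YAP5SA values lay above both controls, the one on chow the higher. The log2 fold of YAP5SA over control was 2.17 on chow (2.04 to 2.31) and 1.08 on HFD (0.92 to 1.25). Nuclei with at least 1 Piezo1 UMI made up 12.4%, 33.8%, 11.3% and 15.8%. After each nucleus was thinned to 2000 UMIs, which left out 42, 104, 35 and 108 shallower nuclei, these shares were 4.50%, 16.1%, 4.35% and 6.23%, in the same order.

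Trpm7 differed the other way and by less. On chow it stood at 591 CPM in the control (581 to 601) and 405 with YAP5SA (397 to 413), and on HFD at 496 in the control (487 to 506) and 418 with YAP5SA (411 to 426). Both YAP5SA libraries lay below both controls. The log2 fold was -0.55 on chow (-0.58 to -0.51) and -0.25 on HFD (-0.29 to -0.21). The controls differed from each other by as much as the HFD pair, with a log2 fold of -0.25 (HFD over chow, -0.29 to -0.21). Thinned shares of positive nuclei were 67.8%, 53.1%, 62.1% and 54.3%. In the cardiomyocyte-like sums, scaling by TMM or by DESeq2 size factors shifted every fold on HFD by -0.19 or -0.25 and those on chow by at most 0.03, so on the latter scale Piezo1 stood at 0.84 and Trpm7 at -0.49 on HFD.

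Only Piezo1 and Trpm7 reached the floor for counting, a mean of 10 CPM over the 4 cardiomyocyte-like sums, and 1 of the 2 was at least 2-fold apart on each diet. Of all 8453 genes at the floor, 15.5% were 2-fold apart on chow and 14.7% on HFD. Since the members were chosen with these contrasts known, nothing is read from that count. The 4 members under the floor had at most 2.09 CPM in any cardiomyocyte-like sum.

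The higher Piezo1 level belonged to clusters that held almost no control nuclei. Cardiomyocyte-like clusters 24 and 25 held 34.5% and 5.13% of the cardiomyocyte-like nuclei of the YAP5SA library on chow and 18.5% and 3.22% of the one on HFD, with 0 nuclei from either control, and cluster 12 held 25.2% and 18.1% there against 3 control nuclei in all. In cluster 24 Piezo1 stood at 172 CPM in YAP5SA on chow (164 to 180) and 113 in YAP5SA on HFD (105 to 122), in cluster 25 at 115 and 75.4, and in cluster 12 at 85.3 and 42.6. Each of these 3 clusters had the higher value on chow. In clusters 7, 8, 9, 10 and 11, which held most control nuclei and 52.2% (cluster 11) of the nuclei of YAP5SA on HFD, Piezo1 stood between 6.43 and 32.1 CPM wherever a library had at least 30 nuclei. Within clusters 8, 9 and 10 the log2 fold of YAP5SA over control was -0.23, 0.03 and -0.02 on chow, and all 3 intervals included 0. On HFD it was -1.03, -0.54 and -0.77, with an interval below 0 in cluster 10 (-1.56 to -0.01).

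Trpm7 was lowest in clusters 24 and 25. In cluster 24 it stood at 224 CPM (215 to 233) and 183 (173 to 194), and in cluster 25 at 323 and 317, in YAP5SA on chow and on HFD. In cluster 12 it stood at 459 and 440, and in clusters 7 to 11 between 436 and 657 wherever a library had at least 30 nuclei. Clusters 24 and 25 carried 5 of the 14 cardiomyocyte markers by the naming rule, where the other 6 clusters carried all 14, and the cardiomyocyte list summed to 20270 and 20490 CPM there against 46080 to 69920. Without these 2 clusters the log2 fold of Piezo1 fell to 1.17 on chow and to -0.094 on HFD, and that of Trpm7 moved to -0.11 and 0.01. Without the 4 clusters in which YAP5SA nuclei made up at least 95% (11, 12, 24 and 25), Piezo1 stood at 0.14 and -0.35 and Trpm7 at 0.02 and -0.11.

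Markers of endothelial, epicardial, endocardial and lymphatic cells, which hold Piezo1, were low in cluster 24 beside those cells' own clusters. All but the lymphatic list were higher there than in clusters 7 to 11, while the fibroblast, pericyte and macrophage lists were not. The endothelial list summed to 74.4 CPM (41.2 to 51.8 in clusters 7 to 11) against 7600 in endothelial-like cluster 13. The epicardial list summed to 46.7 CPM (7.72 to 13.9) against 4070 in epicardial-like cluster 21, and the endocardial list to 256 (59.8 to 76.0) against 6061 in endocardial-like cluster 15. The lymphatic list, at 170 CPM (123 to 202), lay within their range and stood at 5817 in lymphatic endothelial-like cluster 20. The fibroblast and pericyte lists, at 220 CPM (246 to 347) and 60.1 CPM (247 to 477), lay below the range of clusters 7 to 11. The macrophage list, at 60.9 CPM (21.8 to 63.2), lay within it. Smooth muscle markers summed to 861 CPM (67.9 to 258). Over the whole cardiomyocyte-like class the endocardial list summed to 66.6, 171, 71.4 and 134 CPM and the epicardial list to 13.5, 27.5, 11.8 and 18.8, both higher in each YAP5SA library than in either control, as Piezo1 was. The macrophage list, at 25.3, 47.1, 29.5 and 72.0 CPM, was higher in the YAP5SA libraries too, while the fibroblast list, at 276, 212, 413 and 290, was not. The smooth muscle list summed to 166, 735, 209 and 194 CPM, high in YAP5SA on chow alone. The part of these cell types in the Piezo1 result was not tested. In atrial cardiomyocyte-like nuclei, a separate cluster of 14, 80, 84 and 194 nuclei, Piezo1 stood at 23.9 CPM (2.89 to 86.2), 124 (93.2 to 161), 16.0 (7.33 to 30.4) and 66.5 (51.9 to 84.0), again higher in both YAP5SA libraries. Trpm7 stood at 585, 335, 517 and 297 CPM there, lower in both.

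**Figure D2:**
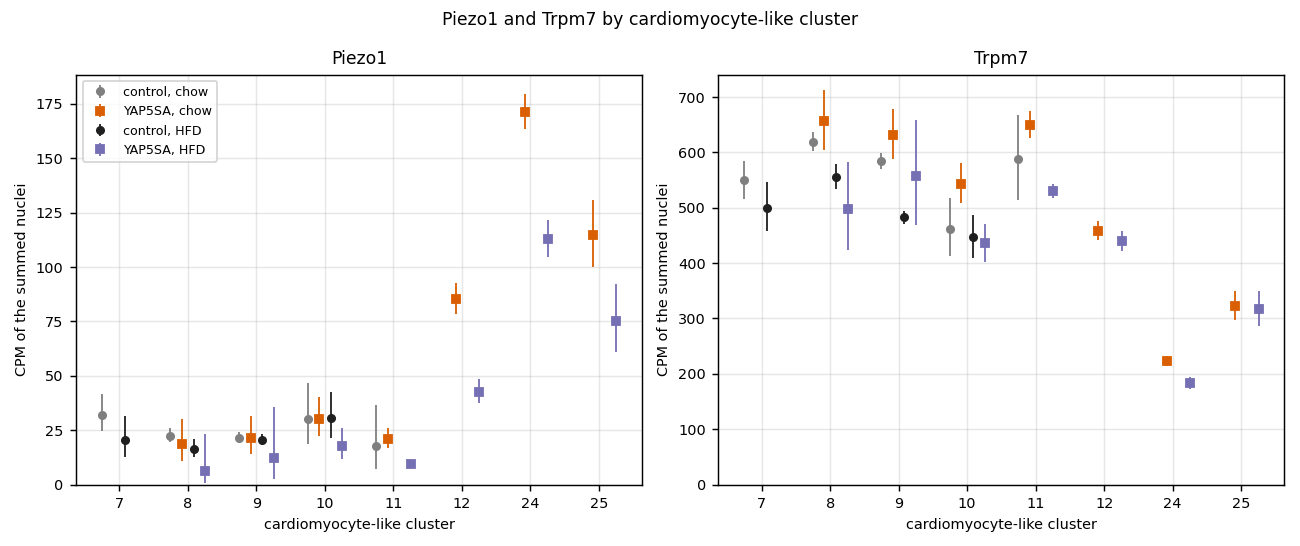
Piezo1 (left) and Trpm7 (right) in the 8 cardiomyocyte-like clusters (x axis), as CPM of the summed nuclei (y axis) for each library with at least 30 nuclei in the cluster; bars are exact Poisson 95% intervals. Clusters 12, 24 and 25, shown for the YAP5SA libraries alone because controls had 0 to 2 nuclei there, have the highest Piezo1 values, and clusters 24 and 25 the lowest Trpm7 values.

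Outside cardiomyocytes the folds of Piezo1 were smaller in the classes that allowed one. In fibroblast-like nuclei it stood at 104, 165, 113 and 128 CPM, with log2 folds of 0.66 (0.50 to 0.83) on chow and 0.18 (0.06 to 0.30) on HFD. In endothelial-like nuclei it stood at 239, 271, 278 and 274 CPM, and both intervals of the fold included 0. In endocardial-like nuclei it stood at 190, 227, 204 and 188.5 CPM. The log2 fold there was 0.25 (0.04 to 0.48) on chow and -0.115 (-0.29 to 0.06) on HFD. In macrophage-like nuclei it stood at 73.2 CPM (44.7 to 113), 183 (143 to 230), 90.8 (67.4 to 120) and 133 (115 to 152), but with 96 and 107 nuclei in the chow libraries this class was under the minimum of 200 nuclei for a fold.

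Piezo2, best known as the touch channel of sensory neurons, showed the largest fold of YAP5SA over control among the members at the floor, in fibroblast-like nuclei. On chow it stood at 80.3 CPM in the control (72.4 to 88.7) and 533 with YAP5SA (513 to 553), and on HFD at 86.5 in the control (80.9 to 92.5) and 433 with YAP5SA (420 to 447). Both YAP5SA libraries lay far above both controls, which lay close together. The log2 fold was 2.73 on chow (2.58 to 2.89) and 2.32 on HFD (2.22 to 2.43). Nuclei with a Piezo2 UMI made up 14.6%, 52.6%, 18.5% and 47.3%, and after thinning, which left out 54, 110, 101 and 183 nuclei, 9.68%, 42.0%, 11.7% and 36.1%. Among the 4 members at the floor in fibroblast-like sums (Piezo1, Piezo2, Trpm7 and Kcnk2), Piezo2 was the 1 that was 2-fold apart, on each diet, against 9.28% of 9999 genes on chow and 10.3% on HFD, from which nothing is read for the reason given above.

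The make-up of the fibroblast-like class also differed. Cluster 4, led by Prg4, Ltbp2, Tnc and Cilp, held 57.0% and 51.1% of the fibroblast-like nuclei of the YAP5SA libraries, with 34 and 50 control nuclei, whereas cluster 3, led by Duox1, Scara5 and C7, held 254 and 683 control nuclei but 6 and 46 from YAP5SA. Piezo2 was higher in YAP5SA within clusters as well. In cluster 1, led by genes of the cell cycle, it stood at 85.2, 553, 78.4 and 464 CPM, with log2 folds of 2.68 (2.26 to 3.17) and 2.56 (2.21 to 2.94). In cluster 4 it stood at 156, 605, 248 and 546 CPM, with log2 folds of 1.92 (1.32 to 2.67) and 1.12 (0.72 to 1.59). In cluster 0 it stood at 104, 246, 124 and 148 CPM, with log2 folds of 1.24 (0.963 to 1.501) and 0.26 (0.05 to 0.46). In cluster 3 it stood at 17.7 CPM in the HFD control and 16.1 with YAP5SA on that diet, from 46 nuclei, with a log2 fold of 0.07 (-2.46 to 1.48). Piezo2 thus ranged from cluster 3, where it was low but YAP5SA nuclei were few, to clusters 1 and 4, where only the YAP5SA libraries were above 400 CPM.

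Markers of other cells that hold Piezo2 did not all move with it. In the fibroblast-like sums the lymphatic endothelial list summed to 47.8, 34.5, 51.7 and 59.2 CPM, the endothelial list to 90.6, 135, 114 and 139 and the pericyte list to 340, 408, 292 and 384. The last 2 were higher in the YAP5SA libraries, the endothelial list at levels far under the 7600 CPM of cluster 13, and their part was not tested. In pericyte-like nuclei Piezo2 stood at 224 CPM (192 to 261), 539 (469 to 616), 206 (180 to 234) and 267 (231 to 307), with 125 to 256 nuclei per library, and was highest in YAP5SA on chow. In endothelial-like nuclei it stood at 281, 189, 268 and 305 CPM, with a log2 fold of -0.57 (-0.81 to -0.33) on chow and 0.19 (-0.01 to 0.39) on HFD. With stricter nucleus filters, which left 112, 135, 189 and 181 of the 396, 372, 602 and 380 endothelial-like nuclei, the value on chow was 0.44.

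Kcnk2 was highest in fibroblast-like nuclei, and there it was higher in 1 library. It stood at 297 CPM (282 to 313), 309 (294 to 325), 303 (293 to 314) and 433 (420 to 447), so that 3 libraries lay together and YAP5SA on HFD above them. The log2 fold was 0.06 (-0.05 to 0.16) on chow and 0.51 (0.45 to 0.58) on HFD. Thinned shares of positive nuclei were 33.1%, 34.0%, 33.4% and 42.4%. By cluster the direction varied: in cluster 0 it stood at 308, 158, 280 and 306 CPM, lowest in YAP5SA on chow, and in cluster 1 at 257, 257, 184 and 393, highest in YAP5SA on HFD. Scaling by TMM turned the fold on chow to -0.03.

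**Figure D3:**
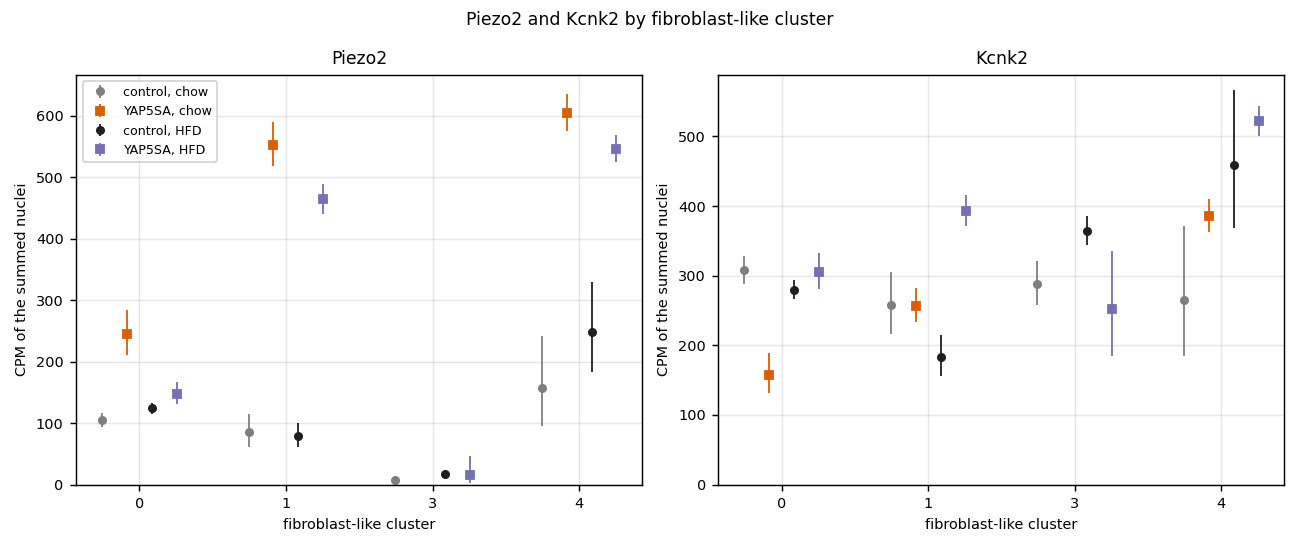
Piezo2 (left) and Kcnk2 (right) in the 4 fibroblast-like clusters (x axis), as CPM of the summed nuclei (y axis) for each library with at least 30 nuclei in the cluster; bars are exact Poisson 95% intervals. In clusters 1 and 4 Piezo2 lies above 400 CPM in both YAP5SA libraries and below 250 in both controls, while Kcnk2 has no common direction.

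Trpv4 rested on few UMIs. In endocardial-like nuclei it stood at 11.4 CPM (6.39 to 18.8), 27.9 (21.7 to 35.3), 9.12 (6.06 to 13.2) and 21.1 (15.7 to 27.8), from 15, 69, 28 and 50 UMIs, and both YAP5SA libraries lay above both controls. It was the 1 of 5 members at the floor there that was 2-fold apart, on each diet, against 6.06% of 9630 genes on chow and 7.44% on HFD. With stricter filters, which left 42, 167, 159 and 229 of the 230, 600, 599 and 626 endocardial-like nuclei, its log2 fold on chow turned from 1.25 to -0.27 and that on HFD went from 1.20 to 0.31. With finer clustering the value on chow was 0.42. In endothelial-like nuclei Trpv4 stood at 26.9, 24.5, 16.4 and 33.9 CPM, with the controls and YAP5SA libraries interleaved. Over the libraries together it stood at 92.1 CPM in endothelial-like cluster 14 and 20.0 in cluster 13. Cluster 14 held 1.26%, 4.84%, 3.65% and 11.1% of the endothelial-like nuclei, and the part of this make-up was not tested. There 1 of 5 members at the floor was 2-fold apart on each diet, against 6.24% of 9666 genes on chow and 9.21% on HFD: Kcnk2 on chow, from 4 and 15 UMIs, and Trpv4 on HFD, from 38 and 35 UMIs, whose log2 fold of 1.05 turned to -0.33 with the stricter filters. Cardiomyocyte-like nuclei held 2 to 5 Trpv4 UMIs per library.

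Trpc6 had overlapping intervals in control and YAP5SA on each diet in the classes where it was concentrated. In smooth muscle-like nuclei it stood at 284 CPM (210 to 376), 248 (174 to 343), 276 (229 to 331) and 259 (204 to 325), from 36, 47, 100 and 99 nuclei, and all 4 intervals overlapped. In pericyte-like nuclei it stood at 143 CPM (117 to 173), 145 (110 to 188), 200 (174 to 228) and 256 (221 to 295), where the HFD libraries lay above the chow libraries by their titles. Both classes were under the minimum of 200 nuclei for a fold. In endocardial-like nuclei it stood lower, at 12.95, 18.6, 16.3 and 21.9 CPM, with both YAP5SA libraries above both controls. Its log2 fold there was 0.49 (-0.31 to 1.42) on chow and 0.43 (-0.16 to 1.02) on HFD, and both intervals included 0. It was absent or nearly so from macrophage-like nuclei (0, 0, 0 and 1 UMI). Trpm7 outside cardiomyocytes stayed within 246 to 467 CPM in all classes that had at least 100 nuclei per library, with its lowest value in endocardial-like nuclei of YAP5SA on HFD. Its log2 fold of YAP5SA over control in endocardial-like nuclei was -0.20 (-0.37 to -0.03) on chow and -0.41 (-0.56 to -0.26) on HFD. In fibroblast-like nuclei it was 0.04 (-0.06 to 0.14) and -0.28 (-0.35 to -0.20). In endothelial-like nuclei it was -0.09 and -0.08, and both intervals included 0. Outside cardiomyocytes, endocardial-like nuclei were thus the class with a fold of Trpm7 below 0 by its interval on both diets. With 1 library per group this was not tested.

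No member at the floor was 2-fold apart between the diets in the cardiomyocyte-like or fibroblast-like nuclei of the controls. Between the controls, however, Trpm7 in cardiomyocyte-like nuclei differed by as much as YAP5SA and control did on HFD (log2 folds of -0.25 each). In cardiomyocyte-like nuclei of the controls 0 of 2 members at the floor were 2-fold apart between HFD and chow, against 1.89% of all genes. Piezo1 had a log2 fold of -0.18 (-0.37 to 0.01) and Trpm7 one of -0.25 (-0.29 to -0.21). Under the floor, Kcnk2 had 18 UMIs on chow and 40 on HFD there (log2 fold 1.35, 0.54 to 2.26), at shares of nuclei within the background given above. In the YAP5SA libraries 1 of 2 was, against 4.99% of all genes: Piezo1 was lower on HFD by a log2 fold of -1.27 (-1.37 to -1.17). The share of cluster 24 was also lower there, as given above, and within clusters 12, 24 and 25 Piezo1 was lower on HFD as well. The sequences added to the reference had 599 UMIs in the chow library and 244 in the HFD one. The part of cluster make-up or of these sequences was not tested. The chow library was the male one, so that sex and diet cannot be told apart. In fibroblast-like nuclei 0 of 4 members were 2-fold apart in the controls, against 0.76%, and 0 of 4 in the YAP5SA libraries, against 2.5%. Piezo2 had a log2 fold of 0.11 (-0.07 to 0.29) in the controls and -0.30 (-0.37 to -0.23) in the YAP5SA libraries, and Kcnk2 0.03 (-0.06 to 0.12) and 0.49 (0.40 to 0.57). In endothelial-like nuclei of the controls 1 of 5 members at the floor was 2-fold apart, against 2.38% of 9666 genes. This was Kcnk2, with 4 UMIs on chow and 51 on HFD (log2 fold 2.98, 1.69 to 5.06). Its share in macrophage-like nuclei, read above as background, was also higher in the HFD control. Fibroblast-like nuclei, which carry Kcnk2, made up 18% of the chow control and 26.8% of the HFD control. The part of free RNA was not tested.

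The genes whose levels ran most like each member's were ranked by Pearson r of log2(CPM + 1) over 24 sums, those of 6 classes in 4 libraries, among 10408 genes with a mean of at least 10 CPM. Sums of a library share its depth and animals, so r is a description only. For Piezo1 they included Mospd2 (r = 0.934) and Chn2 (0.927). For Piezo2 the first 3 were Xylt1, which starts proteoglycan sugar chains (0.947), the netrin receptor Unc5b (0.944) and Fkbp5 (0.922). For Trpm7 they were Hopx (0.871), Macrod1 (0.851) and Nav2 (0.850), the lowest values of the 6 members. For Kcnk2 they were Apbb1ip (0.965), Chsy3 (0.962) and Lncppara (0.959), for Trpc6 the phosphodiesterase Pde8b (0.914), Gprc5c (0.910) and Colec11 (0.902), and for Trpv4 Samd9l (0.961), the sheddase Adam10 (0.956) and St3gal1 (0.952).

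Genes that work beside the channels were followed in 5 lists, holding 67 genes, with edgeR's quasi-likelihood test of the cardiomyocyte-like sums, 2 YAP5SA against 2 control libraries with the diets together (Benjamini-Hochberg adjusted p under 0.05). By their titles the libraries of each arm differ in diet, so they come from different mice. In the YAP5SA arm they differ in sex as well. The p-values measure only the spread between libraries, which here holds diet and sex along with any difference between animals. Over all 16873 genes tested, 7.85% rose and 4.21% fell, and the median log2 fold was 0.05. Of 60 list genes tested, 4 rose and 5 fell. The members were in the same fit, but no call is given for them because the rule used this contrast. These calls rested on the clusters of YAP5SA nuclei: without clusters 24 and 25, 219 genes rose and 145 fell, with 0 and 1 of the list genes, and without the 4 clusters of at least 95% YAP5SA nuclei 16 rose and 8 fell, with none of the list genes among them. In that last fit 2320 of 14787 genes had an unadjusted p under 0.05. The calls also rested on single libraries: without control on chow, or without control on HFD, only Kcnk3 of the 9 genes was still called, without YAP5SA on chow 5 were and without YAP5SA on HFD 8.

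Among 8 other two-pore-domain potassium channels, the background potassium channels related to Kcnk2, 4 were tested, 2 rose and 1 fell, with a median log2 fold of 1.69. Kcnk3 (TASK-1), a background channel of the cardiomyocyte, stood at 74.7, 26.7, 103 and 32.1 CPM, low in both YAP5SA libraries with no overlap. It fell by 1.68 on the log2 scale (SE 0.23, edgeR adjusted p = 0.0081). Kcnk13 rose from a low level, at 1.38, 5.71, 1.36 and 4.38 CPM (log2 fold 1.82, SE 0.36, edgeR adjusted p = 0.026). Kcnk1 also rose, at levels of 0.05 to 1.01 CPM (log2 fold 3.27, SE 0.80, edgeR adjusted p = 0.047).

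Among 23 other mechanically gated, swelling-gated or stretch-linked channels, 21 were tested, 1 rose and 2 fell, with a median of 0.18. Tmem63b, of the OSCA/TMEM63 family of channels opened by stretch and osmotic change, stood at 76.1, 40.1, 73.9 and 38.8 CPM, with both YAP5SA libraries near each other and below both controls. It fell by 0.999 (SE 0.17, edgeR adjusted p = 0.016). Its relative Tmem63c fell by 2.11 at under 1 CPM in every library (SE 0.53, edgeR adjusted p = 0.0496). Trpv2, a cation channel linked to stretch in muscle, rose from 2.20 and 1.31 CPM in the controls to 5.45 and 4.82 (log2 fold 1.48, SE 0.37, edgeR adjusted p = 0.049). The last 2 lay close to the threshold.

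Among 12 magnesium transport genes, chosen because Trpm7 carries magnesium, all 12 were tested, 1 rose and 1 fell, with a median of -0.08. Magt1, a protein of the oligosaccharyltransferase complex that has been linked to magnesium uptake, stood at 79.0, 48.3, 84.7 and 48.6 CPM and fell by 0.83 (SE 0.17, edgeR adjusted p = 0.029). Slc41a2, a magnesium transporter, rose by 2.58 from 0.39 and 0.40 CPM in the controls (SE 0.63, edgeR adjusted p = 0.046). Among 10 partners and regulators of the channels 9 were tested, 0 rose and 1 fell, with a median of -0.30. At an unadjusted p under 0.05, 2 were higher and 4 lower, and DESeq2 called 1 up and 4 down. Sptbn4, a beta-spectrin of the membrane skeleton, stood at 7.77, 2.84, 5.93 and 3.01 CPM and fell by 1.30 (SE 0.29, edgeR adjusted p = 0.036). Among 14 genes of calcineurin and NFAT signalling, all tested, edgeR called 0 in either direction, with a median of -0.10. At an unadjusted p under 0.05, 1 was higher and 2 lower, and DESeq2 called 1 up and 1 down. The most abundant of them, the kinase gene Camk2d, stood at 1920, 1800, 2356 and 1673 CPM (log2 fold -0.37, SE 0.23, edgeR adjusted p = 0.33).

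**Figure D4:**
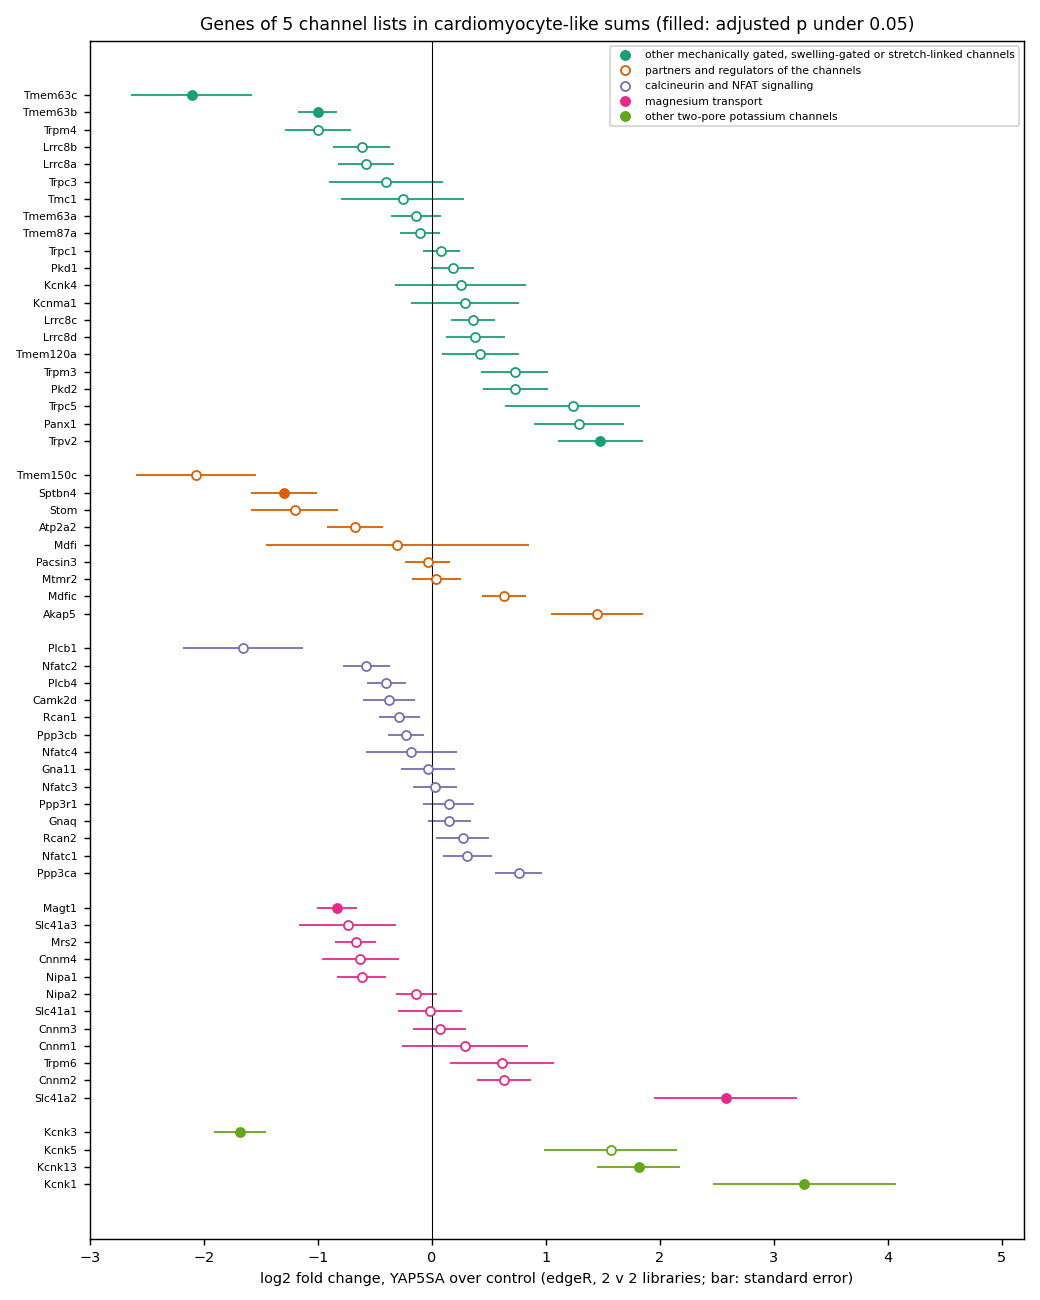
log2 fold change of YAP5SA over control in cardiomyocyte-like sums (x axis; edgeR, 2 against 2 libraries; bars are standard errors) for the 60 tested genes of the 5 lists (y axis, grouped and coloured by list). Filled points are the 9 genes with an adjusted p under 0.05, of which Kcnk3 and Tmem63b have the smallest values.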

How the data were processed

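The deposited values are raw UMI counts per gene and barcode from 10x 3' single-nucleus libraries, which the authors made with Cell Ranger 7.1.0 on mm10, per the submitters' processing notes. Whether counting used introns or strand is not stated in the labels. Nuclei with at least 500 genes and at most 5% mitochondrial UMIs were kept. Doublets were removed with Scrublet (4.51% to 6.93% per library), by its automatic threshold in the HFD libraries. In the chow libraries that threshold marked 0.0785% and 0.0115%, so the highest scores were removed, 0.8% per 1000 nuclei.

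Nuclei were clustered with scanpy 1.11.5 (3000 variable genes, 30 components, 15 neighbours, resolution 1) into 26 clusters, named from marker lists. The limits of the naming rule (at least 25% of a list present and at least 3 markers, and fewer than 5 of the top 10 genes peaking elsewhere) were set after the data were seen. They keep clusters 24 and 25 in the cardiomyocyte-like class, so results are given without them too. Unnamed clusters held 6.73%, 6.01%, 9.48% and 6.49% of nuclei. No lymphocyte-like class was found, so Trpv4 has no background class.

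Counts were summed per library and class. CPM have exact Poisson intervals, shares Clopper-Pearson intervals, and log2 folds (prior of 0.5 counts) exact conditional binomial intervals, for classes with at least 200 nuclei per library. UMIs remove PCR copies, and the intervals cover counting error only. With 1 library per group these folds have no test. List genes were tested with edgeR 4.0.16 (quasi-likelihood, TMM, filterByExpr), with DESeq2 1.42.0 as an alternative. The script was tested on simulated data. The members and lists were chosen with earlier results of these data known. All 6 members are named, with the 3 genes most like each (1 of them is not reported here), every called list gene, and the most abundant gene of a list with no call.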

Additional observations from a re-analysis of the deposited data

How the results depend on the processing

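Leaving out the cardiomyocyte-like clusters of at least 95% YAP5SA nuclei turned the log2 fold of Piezo1 on HFD to -0.35, and leaving out only those with no control nucleus, a setting chosen after seeing the data, turned it to -0.094. These 2 settings, in that order, moved the cardiomyocyte-like genes at least 2-fold higher on chow from 721 to 160 and 301, those lower on chow from 589 to 138 and 184, those edgeR called up from 1325 to 16 and 219, those called down from 710 to 8 and 145, list genes that rose from 4 to 0 and 0 and list genes that fell from 5 to 0 and 1. The first of them moved the genes higher on HFD from 937 to 581. Stricter nucleus filters turned Trpv4 to -0.27 in endocardial-like nuclei on chow and to -0.33 in endothelial-like nuclei on HFD. Without the CPM floor 4696 and 3370 genes were higher and lower on chow and 6488 and 2306 on HFD, and with a floor of 50 CPM 282, 222, 306 and 139. TMM scaling gave 711 higher and 476 lower on HFD and DESeq2 size factors 648 and 551, against 937 and 303. DESeq2 called 1117 genes down, and 10 list genes. Without the count filter edgeR called 2082 up and 1232 down, with 11 list genes down. Leaving out 1 library at a time, which leaves an arm of 1 library that is assumed to vary like the others, edgeR called 816 to 1779 genes up and 254 to 1130 down, and 0 to 9 list genes up and 1 to 7 down. The labels give no replicate numbers that could pair libraries, and with diet as a block, which sets YAP5SA against control within each diet, 1213 genes rose and 617 fell. Depth limits Trpv4 most, which had 704 UMIs in all nuclei kept.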
